A study of Mus musculus with 56 samples.

Results

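Heme synthesis and breakdown in mouse liver was followed through 9 genes of the gene table, found by their symbols: Alas1, Alad, Uros, Urod, Cpox, Ppox and Fech, which encode enzymes of heme synthesis, and Hmox1 and Blvrb, which encode enzymes of heme breakdown. All 9 were found among 25415 genes, and all 9 passed the filter on low values. Livers came from female C57BL/6J mice, 9 weeks old, kept under 12 h of light and 12 h of dark and sampled after 7 days on a restricted feeding regimen. In daytime-restricted feeding (DRF), food was given in the light phase, and in nighttime-restricted feeding (NRF), the reference regimen, in the dark phase. Time is given as zeitgeber time (ZT), counted in hours from lights on. Each regimen was sampled at ZT 0, 4, 8, 12, 16, 20 and 24, with 4 libraries per time, which made 14 groups, 28 libraries per regimen and 56 in all. The labels name no genetic change, and mice of both regimens received restricted food, so no group fed ad libitum was compared.

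Heme is the iron-holding ring of the hepatic cytochromes P450, of catalase and of the respiratory chain, and liver is a major site of its synthesis outside the bone marrow. Synthesis begins and ends in mitochondria: ALAS1 joins glycine and succinyl-CoA in the rate-limiting step, the enzymes from ALAD to UROD work in the cytosol, and CPOX, PPOX and FECH complete the ring and insert iron. Heme itself lowers ALAS1, and fasting is known to raise Alas1 through the coactivator PGC-1alpha. Heme oxygenase 1, encoded by Hmox1, opens the ring to biliverdin, iron and carbon monoxide, and biliverdin reductases such as BLVRB reduce biliverdins and flavins.

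Gene values were recovered from the deposited table as scaled counts, which sum to between 888151 and 1115250 per library and are not corrected for gene length. They compare libraries, and levels of different genes were compared only per kilobase (kb) of exon. Correlations between replicates of a group, across genes, lay between 0.937 and 0.987 over 84 pairs. The hepatocyte markers Alb, Ttr, Apoa1, Cps1 and Tat summed to between 94744 and 151645 scaled counts per library. Because liver was sequenced in bulk, fewer cells of a type and less RNA per cell cannot be told apart. The labels do not say whether the 4 libraries of a group came from separate cages, so p-values measure the spread between these libraries.

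Promoter windows of RefSeq (GRCm38.p6), from 250 bases before to 50 bases after a gene start, were found for 7 of the 9 genes in 11 windows, with none for Hmox1 and Fech. Those shown belong to the gene with the largest rhythm, Alas1, and to Alad and Urod, whose promoters held the clock element E-box and whose profiles differed. All 3 genes lie on the minus strand and the sequences are written 5′ to 3′ along it. The Alas1 window is chr9:106247681-106247980, the Alad window chr4:62519860-62520159 and the Urod window chr4:116994364-116994663. Capitals mark an NRF1 site, a palindrome, in Alas1 and an E-box (CACGTG) in Alad and Urod.
Alas1: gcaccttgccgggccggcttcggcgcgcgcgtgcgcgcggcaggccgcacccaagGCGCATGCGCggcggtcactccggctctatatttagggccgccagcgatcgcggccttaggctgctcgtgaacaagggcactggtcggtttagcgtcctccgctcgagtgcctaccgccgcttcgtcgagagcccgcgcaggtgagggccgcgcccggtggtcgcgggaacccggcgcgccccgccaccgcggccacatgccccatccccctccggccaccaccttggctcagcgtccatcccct
Alad: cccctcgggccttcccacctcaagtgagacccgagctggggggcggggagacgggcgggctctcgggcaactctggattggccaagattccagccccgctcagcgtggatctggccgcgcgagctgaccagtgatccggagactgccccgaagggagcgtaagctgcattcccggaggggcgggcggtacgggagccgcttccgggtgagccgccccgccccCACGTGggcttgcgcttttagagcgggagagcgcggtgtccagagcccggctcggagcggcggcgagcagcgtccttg
Urod: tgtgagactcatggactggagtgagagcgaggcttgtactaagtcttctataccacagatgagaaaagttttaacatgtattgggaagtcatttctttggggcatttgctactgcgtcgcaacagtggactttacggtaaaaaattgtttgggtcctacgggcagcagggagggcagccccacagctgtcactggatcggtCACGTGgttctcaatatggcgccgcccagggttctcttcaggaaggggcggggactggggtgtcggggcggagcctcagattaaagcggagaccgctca
The E-box, searched on both strands, was present in both windows of Alad, in the window of Urod and in 1 of 2 windows of Uros, against 7.15% of 32851 windows of all genes. The NRF1 site was present in both windows of Alas1, which overlap and share 1 copy, against 0.971% of all windows. Both sites read the same on either strand. The windows of Cpox, Ppox and Blvrb held neither. A RORE core (AGGTCA, 16.3% of all windows), a D-box (TTATGTAA, 0.938%), a CRE (TGACGTCA, 1.79%), a FOXO site (GTAAACA, 3.65%), an antioxidant response element core (TGACNNNGC, 12.4%) and a TATA box (TATAAA, 13.6%) were searched in the same way and matched in 0 of the 11 windows. A match or its absence describes the letters of these windows only.

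The 9 genes differed in level by over 100-fold per kb. Alad was the most abundant at 59.3 ± 12.1 scaled counts per kb (SD, n = 56 libraries), above Cpox in 56 of 56 libraries. Cpox (25.03 ± 3.89), Alas1 (20.7 ± 14.9) and Fech (15.2 ± 2.16 scaled counts per kb) followed. Alas1 moved through this order: it was above Fech in only 31 of the 56 libraries and below Cpox in 38, and it ranged from 1.47 to 62.5 per kb. Hmox1 stood at 10.3 ± 2.19 per kb, Urod at 5.70 ± 0.723 and Blvrb at 5.60 ± 0.872. Urod exceeded Blvrb in 33 of 56 libraries, so these neighbours did not separate. Uros (1.12 ± 0.189 per kb) and Ppox (0.425 ± 0.0657 per kb) were lowest, and each was below the gene before it in all 56 libraries. The length of Fech was estimated from its values (2901 bases, against 13838 annotated exon bases), so its place per kb is less certain than the others.

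Rhythms were tested by fitting a 24 h cosine to log2(scaled count + 1) with limma, and adjusted p-values cover all 25415 genes. Under DRF, Alas1, Alad, Cpox and Blvrb were rhythmic, 4 of 9, where 34.9% of all genes were called. Under NRF, Alas1, Uros, Urod, Ppox, Fech and Hmox1 were rhythmic, 6 of 9, against 43.6% of all genes. Only Alas1 passed in both regimens, where 23.2% of all genes did. The rhythm itself differed between regimens for 7 of 9, all but Urod and Hmox1, against 38.8% of all genes. It differed for 5 of 9 whichever replicate was left out. With only the 6695 genes of at least 10 scaled counts tested, 4264 were rhythmic under DRF, 4491 under NRF and 4392 differed in rhythm. Of the 9 genes, 7 were in that set, and 5, 5 and 6 of them passed. The shares of all genes, here and below, thus set a low background for the rhythm tests.

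**Figure D1:**
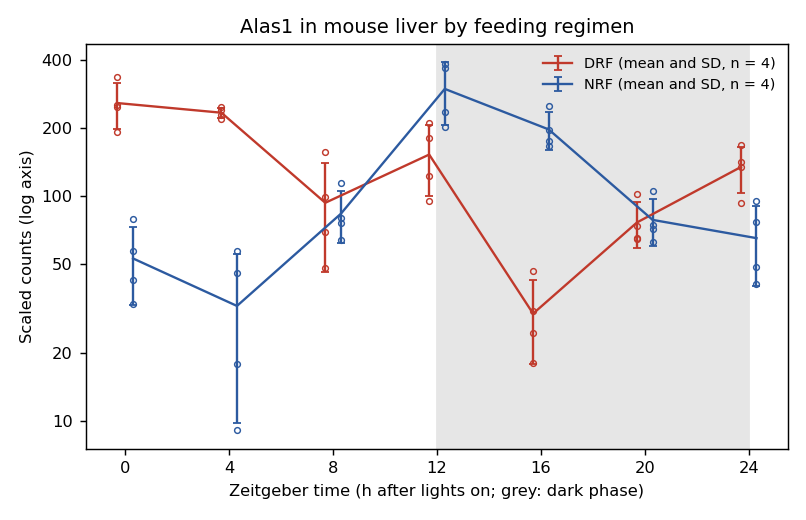
Alas1 in scaled counts (log axis) against zeitgeber time in hours; circles are single livers, lines and bars are the mean and SD of 4 livers under DRF (red) and NRF (blue), and grey marks the dark phase. The highest DRF mean, 258, was at ZT0 and the highest NRF mean, 299, at ZT12, with the lowest at ZT16 (30.02) and ZT4 (32.4).

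Alas1, the gene of the rate-limiting enzyme (chromosome 9, 106233455 to 106248654, minus strand, GRCm38), had the largest daily change of the 9 and peaked in the opposite phase under the 2 regimens. Of its exon bases, 7.53% overlap 4930500F10Rik on the other strand, and whether strand was used in counting is not given in the sources used here. Under DRF it was highest at ZT0, with 192, 338, 254 and 249 scaled counts in the 4 livers, and stayed high at ZT4 with 241, 228, 220 and 247. It was lowest at ZT16, with 46.4, 30.8, 18.1 and 24.7, so no ZT16 liver reached any liver of ZT0 or ZT4. The ratio of the ZT0 mean (258 ± 60.1, SD, n = 4) to the ZT16 mean (30.02 ± 12.1) was 8.60.

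Under NRF the order turned. The 4 livers of ZT12 held 386, 370, 235 and 203 scaled counts (mean 299 ± 93.1), and those of ZT4 held 57.1, 9.09, 45.6 and 18.0 (mean 32.4 ± 22.6), a ratio of 9.21. The groups did not overlap, but the low one was uneven, and its replicate 2 was the lowest of all 56 libraries.

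The fitted peak of Alas1 was at 3.68 ± 0.67 h (SE) in DRF livers (adjusted p = 7.12e-05) and at 14.3 ± 0.56 h in NRF livers (adjusted p = 2.37e-07). The shift was 10.7 ± 0.87 h, and the rhythms differed with an adjusted p of 1.00e-09. Among 5890 genes rhythmic in both regimens, 50.9% shifted by 8 to 12 h, as Alas1 did, and 24.5% by at most 4 h. The log2 amplitude was 1.11 ± 0.20 under DRF and 1.40 ± 0.20 under NRF, a difference of -0.28 ± 0.28 (DRF minus NRF), which is within its error. Of 6695 genes with a mean of at least 10 scaled counts, 99.5% had a smaller amplitude than Alas1 in each regimen.

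At the same clock time, Alas1 was higher under DRF by 2.31 ± 0.37 on the log2 scale at ZT0 (adjusted p = 6.11e-06) and by 3.13 ± 0.37 at ZT4 (adjusted p = 1.21e-08), and lower at ZT16, where the log2 difference was -2.74 ± 0.37 (adjusted p = 4.02e-07). At ZT8 and ZT20 the differences were 0.06 and -0.03, each with an SE of 0.37. At ZT24 the difference of 1.09 (adjusted p = 0.0386) was smaller than at ZT0, and it was lost without replicate 1, 3 or 4 of every group and with the values as deposited. DRF livers held 93.2, 134, 142 and 168 scaled counts at ZT24, all below the lowest ZT0 liver of that regimen. Both times stand for the start of the light phase. In the DRF livers of Alad, Urod, Hmox1 and Blvrb, too, all ZT24 values lay below all ZT0 values. For Alad the means were 109 at ZT0 and 79.3 at ZT24. Those of Uros, Cpox, Ppox and Fech overlapped, and the share of all genes so separated was not counted.

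The regimens were also compared 12 h apart, pairing each DRF time with the opposite NRF time, with ZT0 and ZT24 pooled; the exact hours of food access were not given in the sources used here. Alas1 then differed at 1 of 6 pairs: DRF ZT12, before the dark phase, against NRF ZT0 and ZT24, with means of 152 and 58.8 and a log2 difference of 1.37 ± 0.32 (adjusted p = 0.00734). The value was lost without replicate 4 and without the ZT0 libraries. The other 5 differences lay between -0.65 and 0.26. The lowest, DRF ZT0 and ZT24 against NRF ZT12, pooled DRF groups with means of 258 and 134. In limma its unadjusted p was 0.0464 and its adjusted p 0.266. Over all pairs together the adjusted p was 0.0107, with values up to 0.195 without replicate 1 or 4.

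**Figure D2:**
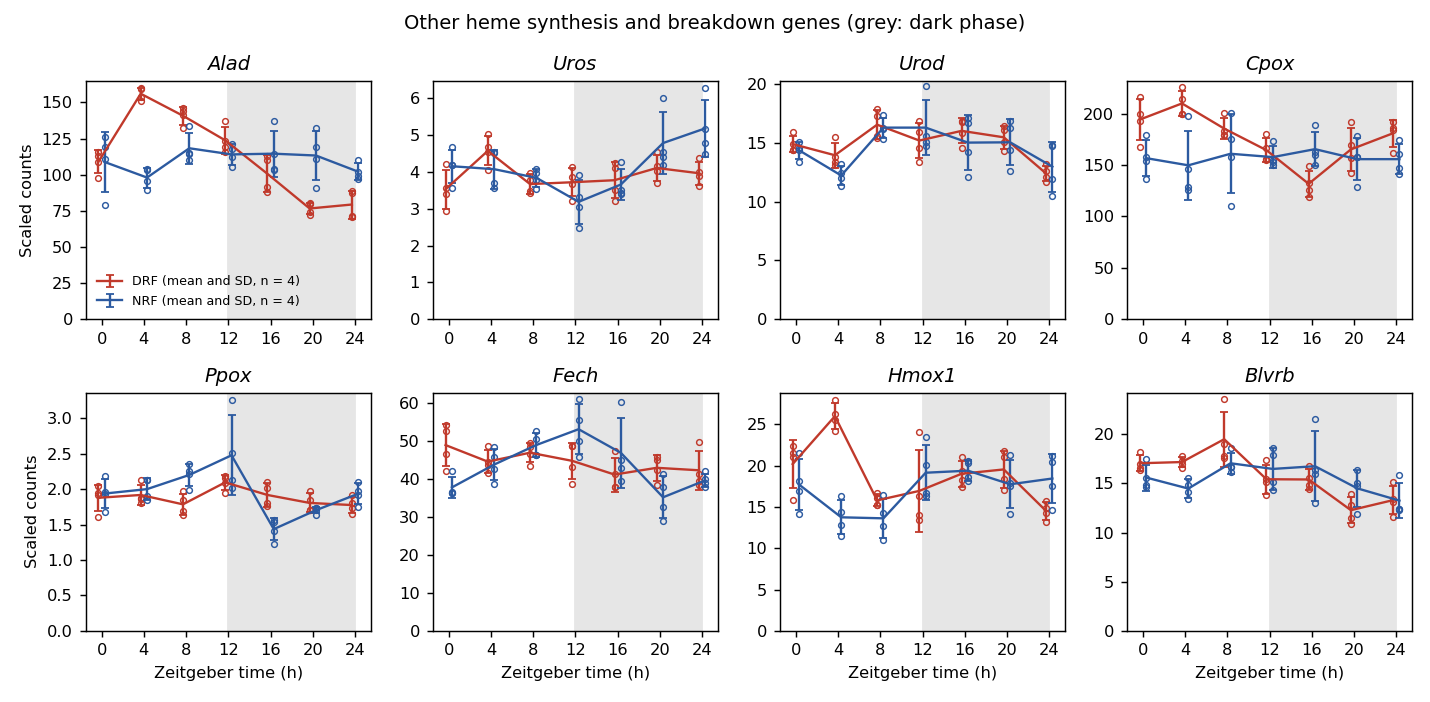
The other 8 genes in scaled counts against zeitgeber time in hours, each axis from 0; circles are livers, lines and bars the mean and SD of 4 livers under DRF (red) and NRF (blue), grey is the dark phase. The livers of Alad, Cpox, Hmox1 and Blvrb did not overlap between regimens at ZT4, Blvrb without passing the limma test (adjusted p = 0.110). The livers of Urod overlapped between regimens at all 7 times. How many of all genes separated in this way was not counted.

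Alad, whose enzyme joins 2 aminolevulinate molecules to porphobilinogen (chromosome 4, 62509169 to 62519918), passed the rhythm test under DRF only. Its 4 livers at ZT4 held 159, 151, 154 and 160 scaled counts under DRF and 89.2, 103, 104 and 95.7 under NRF. The groups did not overlap and their log2 difference was 0.67 ± 0.11 (adjusted p = 4.15e-06). At ZT20 the order was turned, with 80.3, 74.1, 72.2 and 79.7 under DRF and 90.9, 119, 111 and 132 under NRF, a log2 difference of -0.55 ± 0.11 (adjusted p = 0.000154).

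Under DRF, Alad peaked at 7.61 ± 0.40 h with a log2 amplitude of 0.48 ± 0.05 (adjusted p = 2.88e-09). Its ZT4 mean was 2.04 times its ZT20 mean. Under NRF the amplitude was 0.09 ± 0.05 (adjusted p = 0.262), which the deposited values and both length corrections brought under the threshold. The rhythms differed (adjusted p = 3.03e-06). With the regimens set 12 h apart, Alad was called at 4 of 6 pairs, higher under DRF at ZT4 (0.45) and ZT8 (0.32) and lower at ZT0 (-0.29) and ZT20 (-0.62). The deposited values gave none of the 4, and those at ZT0 and ZT8 were also lost whichever replicate was left out. That at ZT0 was lost without the ZT24 libraries too.

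Uros encodes the synthase that closes the ring of uroporphyrinogen III (chromosome 7, 133686243 to 133710072). It held 2.48 to 6.28 scaled counts in any NRF liver. Its rhythm passed under NRF (adjusted p = 0.000225), with a peak at 23.3 ± 0.86 h and an amplitude of 0.20 ± 0.04, and did not pass under DRF (amplitude 0.05 ± 0.04). The NRF livers held 4.79, 5.17, 4.50 and 6.28 at ZT24 and 3.32, 2.48, 3.91 and 3.04 at ZT12, without overlap. The order of the ZT24 and ZT12 groups was opposite to that of Alas1. The adjusted p of the rhythm difference was 0.0390. It was lost in 5 of 13 alternatives, among them without replicates 1, 2 and 3 in turn and without the ZT24 libraries (adjusted p = 0.208).

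Urod, the decarboxylase of the next cytosolic step (chromosome 4, 116989965 to 116994413), passed the rhythm test under NRF only, and no difference between its rhythms was detected. Its fitted peak was at 13.0 ± 1.54 h in DRF and at 13.2 ± 1.20 h in NRF livers, and its amplitudes were 0.11 ± 0.04 and 0.14 ± 0.04. The adjusted p was 0.0733 under DRF and 0.0117 under NRF, and the rhythm difference had an adjusted p of 0.920, with a shift of 0.20 ± 1.956 h (SE), so a kept phase is not shown. The DRF rhythm passed in 7 alternatives and the NRF rhythm was lost without replicate 2, without replicate 4 and in the rank test. Set 12 h apart, Urod differed at DRF ZT16 against NRF ZT4, with means of 16.02 and 12.2 (log2 difference 0.36 ± 0.09, adjusted p = 0.00480), a call lost without replicate 1 (adjusted p = 0.0748). None of its 7 differences at the same clock time passed.

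Cpox encodes coproporphyrinogen oxidase of the mitochondrial intermembrane space (chromosome 16, 58670292 to 58717636). It was rhythmic under DRF with a peak at 4.02 ± 0.61 h (amplitude 0.28 ± 0.05, adjusted p = 2.18e-05), close to that of Alas1, and its NRF amplitude was 0.05 ± 0.05. The DRF livers held 200, 226, 200 and 214 scaled counts at ZT4 and 149, 126, 133 and 119 at ZT16. The NRF livers at ZT4 held 129, 126, 198 and 146, so all 4 lay below the DRF livers, with a log2 difference of 0.51 ± 0.12 (adjusted p = 0.00206). The rhythms differed (adjusted p = 0.000266). In the values as deposited, the DRF rhythm did not pass (adjusted p = 0.0718). There the NRF rhythm did (adjusted p = 0.0145), which was not called in the main test (adjusted p = 0.669). Of the exon bases of Cpox, 3.06% overlap Gpr15 on the other strand.

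Ppox, the oxidase before iron insertion (chromosome 1, 171275990 to 171281186), was the least abundant and rhythmic under NRF (adjusted p = 0.000416, fitted peak 7.24 ± 0.73 h, amplitude 0.17 ± 0.03). Its highest NRF mean, 2.48, came later than the fitted peak, at ZT12, with 2.01, 2.13, 3.26 and 2.51 scaled counts. The lowest, 1.44, followed at ZT16. At ZT16 the NRF livers held 1.54, 1.56, 1.23 and 1.41 scaled counts and the DRF livers between 1.76 and 2.10. The groups did not overlap and the log2 difference was 0.26 ± 0.07 (adjusted p = 0.00662), lost without replicate 3 and without replicate 4. The rhythm difference (adjusted p = 0.0255) was lost without replicate 1 and without replicate 4. Of its exon bases, 17.5% overlap B4galt3 on the other strand.

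Fech encodes ferrochelatase, which inserts iron (chromosome 18, 64452914 to 64490251). It followed Ppox in being rhythmic under NRF (adjusted p = 3.21e-06, peak 10.2 ± 0.65 h, amplitude 0.25 ± 0.04) and not under DRF (amplitude 0.07 ± 0.04). NRF livers held 55.4, 61.0, 49.8 and 45.8 scaled counts at ZT12 and 41.3, 28.9, 32.5 and 37.7 at ZT20. At ZT0 the DRF livers held 54.2, 46.6, 52.4 and 42.1 and the NRF livers 36.2, 41.9, 36.2 and 36.5. The log2 difference was 0.36 ± 0.11 (adjusted p = 0.0124), lost without replicate 1 and without replicate 3. At ZT24, the same phase, it was 0.09 ± 0.11 (adjusted p = 0.713). The rhythm difference passed in the main test (adjusted p = 0.00122) and in all 14 alternatives.

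Hmox1 encodes the inducible heme oxygenase (chromosome 8, 75093621 to 75100589). At ZT4 its DRF livers held 26.3, 28.0, 24.2 and 25.5 scaled counts, the highest of all groups, and its NRF livers 11.5, 16.3, 12.8 and 14.4. The groups did not overlap, and the log2 difference was 0.88 ± 0.14 (adjusted p = 4.54e-06), past the threshold in all 14 alternatives. The other 6 clock times gave differences between -0.32 and 0.21, none past the threshold.

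Under DRF, Hmox1 was highest at ZT4 and fell to 16.7, 15.2, 15.2 and 16.1 at ZT8. Its means were 15.8 at ZT8, 16.9 at ZT12, 19.0 at ZT16 and 19.6 at ZT20. They were 20.2 at ZT0 and 26.0 at ZT4. The ZT24 mean, 14.5, broke this rise and lay below that of ZT0, although both stand for the same phase. A cosine did not pass (adjusted p = 0.614), whereas a test of any difference among the 7 times, added after these values were seen, gave an adjusted p of 0.000150; that test called 40.4% of all genes under DRF and 44.7% under NRF. Under NRF the cosine peaked at 17.8 ± 1.1 h (adjusted p = 0.0266), a call lost whichever replicate was left out. The adjusted p of the rhythm difference was 0.0638, and it passed in 4 of 14 alternatives: both length corrections, genes of at least 10 scaled counts only, and without the ZT24 libraries (0.00376). Without the ZT24 libraries the DRF cosine passed too (adjusted p = 0.0356). Set 12 h apart, the differences were 0.41 at DRF ZT4, 0.45 at ZT16 and 0.50 at ZT20, each past the threshold. The ZT4 call was lost in 8 of 14 alternatives. These were the deposited values, median-of-ratios scaling, both length corrections and the fits without each replicate. The ZT16 call was lost whichever replicate was left out, and the ZT20 call without replicate 2.

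Blvrb encodes biliverdin reductase B, also called flavin reductase (chromosome 7, 27447978 to 27466144). Under DRF it peaked at 7.32 ± 0.71 h (amplitude 0.24 ± 0.05, adjusted p = 0.000420), next to the peak of Alad. Its DRF livers held 17.8, 23.6, 19.0 and 17.6 scaled counts at ZT8 and 12.8, 13.9, 10.9 and 11.5 at ZT20. Under NRF the amplitude was 0.12 ± 0.04 (adjusted p = 0.0509), on the threshold, and 8 alternatives put it below. The rhythm difference (adjusted p = 0.0339) was lost without replicate 2, 3 or 4, and none of the 7 clock times passed.

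**Figure D3:**
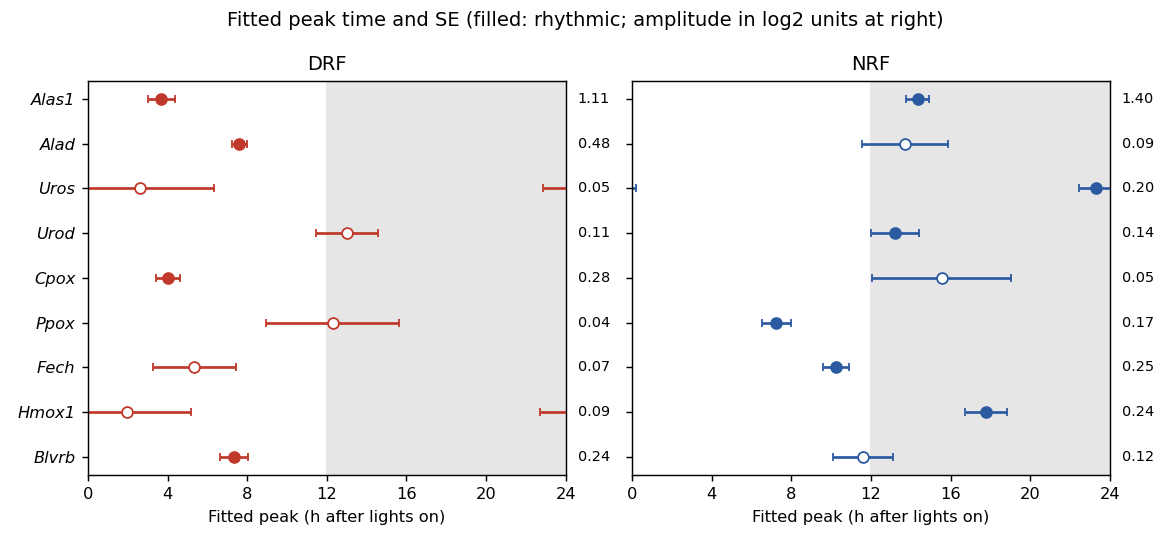
Fitted peak time in hours after lights on, with its SE, of each gene under DRF (left) and NRF (right); filled circles passed the rhythm test, numbers at the right of each panel are log2 amplitudes and grey is the dark phase. The DRF peaks that passed lay between 3.68 and 7.61 h, while the NRF peaks that passed lay between 7.24 and 23.3 h.

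Across the regimens, the 4 rhythmic genes under DRF peaked in the light phase, from 3.68 h (Alas1) to 7.61 h (Alad). The fitted peaks of the 6 under NRF were spread from 7.24 h (Ppox, whose highest mean was at ZT12) to 23.3 h (Uros). Over the 14 group means, the log2 levels of Alas1 and Cpox had a Pearson correlation of 0.71, those of Alad and Blvrb 0.83 and those of Fech and Uros -0.76. These describe 14 points that share libraries and are given without a test.

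**Figure D4:**
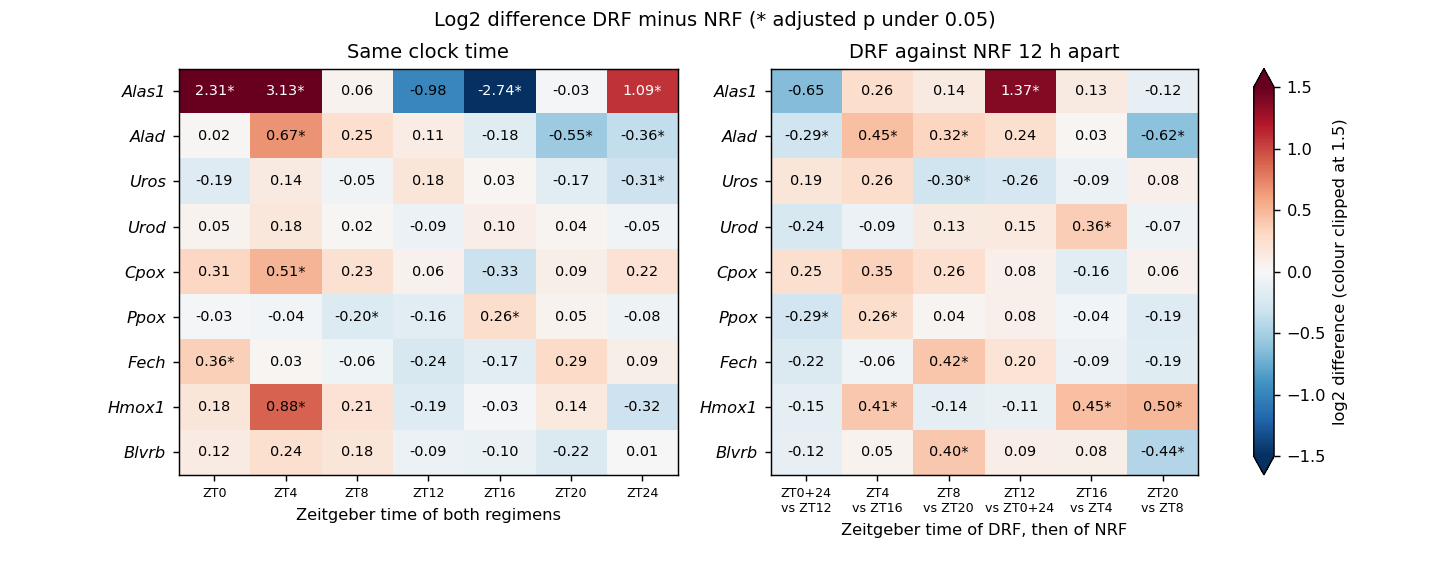
Log2 difference DRF minus NRF for each gene (rows) at the same clock time (left) and with the regimens 12 h apart (right, ZT0 and ZT24 pooled); colour gives the difference, clipped at 1.5, and a star an adjusted p under 0.05. Alas1 held the largest differences on the left, and 4 of 9 genes were starred at ZT4.

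At the same clock time, 7 of 9 genes passed a joint test over the 7 times, against 42.5% of all genes. Urod and Blvrb were the exceptions. With only the 6695 genes of at least 10 scaled counts tested, 4933 passed, and 5 of the 7 members in that set did. The joint call was lost without replicate 4 for Uros, Cpox and Ppox, which left 4 of 9, for Uros also without replicate 1, replicate 2 or the ZT24 libraries, and for Fech without replicate 2 or the ZT0 libraries. At ZT4, Alas1, Alad, Cpox and Hmox1 were all higher under DRF, 4 of 9. There 10.8% of all genes were higher and 20.4% were called in either direction. Of the 6695 genes of at least 10 scaled counts, tested alone, 2689 were called at ZT4 and 2305 at ZT0, larger shares than of all genes. At ZT0, Alas1 and Fech were higher, where 7.98% of all genes were higher and 16% were called in either direction. At ZT12 none of the 9 passed in limma, 3 had an unadjusted p under 0.05, and 15.2% of all genes were called. At ZT16 the called genes were Alas1 and Ppox (15.2% of all genes), at ZT20 Alad (13.7%), at ZT24 Alas1, Alad and Uros (14.1%), and at ZT8 Ppox (13%). The ZT8 call of Ppox was lost in 10 of 13 alternatives, the ZT24 call of Uros without replicate 1, 2 or 4 and that of Alad without replicate 2.

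With the regimens 12 h apart, all 9 genes passed a joint test over the 6 pairs, against 40.7% of all genes. Cpox passed at none of the single pairs. With only the 6695 genes of at least 10 scaled counts tested, 4747 passed, and all 7 members in that set did. The count of the 9 genes was 6 without replicate 1 and 7 without replicate 2 or 4. Counted by the DRF time, 2 of 9 were called for ZT0, where 5.54% of all genes were, and 4 for ZT8 (11.6%). For ZT4 and ZT20 there were 3 each (14.7% and 16.3% of all genes), for ZT16 there were 2 (17.3%) and for ZT12 there was 1 (4.68%). Alas1, Uros, Urod, Cpox and Fech each lost this call without at least 1 replicate. The 24 h means of the 9 genes were not called different between regimens in the main test. There 0 of 9 passed in limma, 1 (Cpox, log2 difference 0.13 ± 0.05) had an unadjusted p under 0.05, and 6.83% of all genes were called. Cpox passed in 1 of 14 alternatives (adjusted p = 0.0384 in limma). This was with only the 6695 genes of at least 10 scaled counts tested, of which 1251 were called. The other 8 differences in mean lay between -0.03 and 0.15.

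Other genes of heme handling were taken from a list of 21. The rhythm difference passed for 11 of 21 (38.8% of all genes), the DRF rhythm for 12 (34.9%) and the NRF rhythm for 12 (43.6%). The median log2 amplitude of the list was 0.19 under DRF and 0.15 under NRF, that of the 9 genes 0.11 and 0.17, and that of all genes tested 0.09 and 0.10. The scale understates changes of low genes, so the median of all genes is a low background. Of the 6695 genes of at least 10 scaled counts, 27.4% had a smaller amplitude than the DRF median of the 9 genes. Under NRF the share was 43.8%. The 9 include Uros and Ppox, which are too low to be in that set. For the 7 members in it, the DRF median was the amplitude of Blvrb (0.24), and 68.3% of those genes had a smaller one. The NRF median was that of Urod (0.14), with 34.8%. These 7 thus had a median above the middle of those genes under DRF and below it under NRF. Clpx, whose protein unfolds ALAS enzymes in mitochondria, had the lowest adjusted p of the list for the rhythm difference (9.32e-23). Its peak was at 13.7 h in DRF livers and 0.39 h in NRF livers, with log2 amplitudes of 1.11 and 1.21. Its phase was thus about opposite to that of Alas1 in each regimen. Pgrmc2, a heme carrier, peaked at 13.9 and 23.7 h (adjusted p = 4.22e-08), and Abcb10, an inner mitochondrial transporter, at 11.9 and 19.1 h (adjusted p = 2.26e-07). Flvcr2, a membrane transporter of the FLVCR family, peaked at 21.6 and 7.22 h (adjusted p = 8.37e-07). In the 24 h mean, 5 of 21 passed (6.83% of all genes), 4 higher (4.13%) and 1 lower (2.7%) under DRF.

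Of 13 known or proposed regulators of Alas1 or Hmox1, 11 passed the rhythm difference, against 38.8% of all genes (median log2 amplitude 0.27 under DRF, 0.35 under NRF), and the 4 with the lowest adjusted p were clock genes. Nr1d2, a heme-binding repressor, had its DRF peak at 21.6 h and its NRF peak at 10.6 h (adjusted p = 5.89e-27), and its paralog Nr1d1 at 20.8 and 7.92 h (adjusted p = 2.07e-21). Npas2, also heme-binding, peaked at 13.2 and 0.37 h (adjusted p = 2.18e-21) and Arntl at 12.0 and 22.6 h (adjusted p = 5.01e-20). Of 6 NRF2 target genes, 3 passed, near the 38.8% of all genes (median log2 amplitude 0.21 and 0.27). Gclc, of glutathione synthesis, peaked at 8.59 and 0.38 h (adjusted p = 4.92e-14), and Srxn1, a sulfiredoxin, at 7.90 and 23.6 h (adjusted p = 2.47e-06).

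The genes most like Alas1 over the 14 group means in log2, among 6694 genes with a mean of at least 10 scaled counts, were Noct, a deadenylase family gene (r = 0.94), Rnf145 (0.91), Fam102a (0.90), Coq10b (0.88) and Pik3r1 (0.88). Those most like Hmox1 were Tysnd1 (0.87), Nmt1 (0.80), Rcan1 (0.79), Aldoa (0.78) and Sar1a (0.78).

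Heme genes are also expressed in red blood cell precursors, and markers of blood moved with the regimen. Of 7 markers, Hba-a1, Hba-a2, Hbb-bs, Hbb-bt and Alas2 were higher in the 24 h mean under DRF (4.13% of all genes), and 0 of 7 were rhythmic in either regimen in limma (34.9% of all genes under DRF, 43.6% under NRF). Alas2, the erythroid form of the rate-limiting enzyme, differed by 0.35 ± 0.09 (adjusted p = 0.00459). The sum of the 7 lay between 567 and 2043 scaled counts under DRF and between 469 and 1353 under NRF, with none of the markers at 0 in any library. At ZT4, where Alas1, Alad, Cpox and Hmox1 were higher, its means were 1541 under DRF and 679 under NRF, and 7 of 7 markers were called higher (10.8% of all genes). At ZT0, where Alas1 and Fech were higher, its means were 1554 and 732, and 4 of 7 were called higher (7.98% of all genes). The Kupffer cell markers, listed because these macrophages express Hmox1, summed at ZT4 to means of 699 under DRF and 713 under NRF. Of these 7, 0 were called in limma (20.4% of all genes). Markers of sinusoidal endothelium had lower sums under DRF at ZT4, 274 to 294 against 334 to 362. Stab2 and Kdr were called lower, 2 of 4 (9.56% of all genes). Stellate cell markers summed there to means of 577 and 652 with 0 of 4 called (20.4% of all genes). Of the cholangiocyte markers, Sox9 was called lower, 1 of 4 (9.56%). Of the 6695 genes of at least 10 scaled counts, tested alone, 2689 were called at ZT4 in either direction. The part of these cell types in the differences of the 9 genes was not tested.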

How the data were processed

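Per the labels, rRNA-depleted, strand-specific libraries of liver were sequenced as paired reads; the molecule field says polyA RNA. Processing notes name CASAVA 1.8 and featureCounts 1.5.0-p3 with mm10 and GRCm38.p6; the aligner is not given in the sources used here. The authors deposited a gene table named TPM that is not linear in reads, so its unit is treated as a score: for library factors a and f and whole counts k, the product of value and exon length was described by a·ln(1 + f·k). In 12088 genes left out of the fit, 96.6 to 99.0% of values lay within 0.05 of a whole count, where 10% would by chance. Scaled counts f·k were recovered for all 25415 genes, with exon lengths from GENCODE vM21 or, for 2087 genes and, at a wider tolerance, 151 more including Fech, searched on the values. For Alas1, Alad, Cpox and Fech wholeness was judged at a tolerance of 0.2, where 40% would by chance. A scaled count stood for 304 to 723 recovered counts, whose total per library was several times the read depth given for the study. They are therefore not taken as reads, the gap is unexplained, and no counting interval is given.

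Groups came from the labels and 0 columns were left unassigned. The design assumed linear values, so its limma tests were applied to log2(scaled count + 1), a scale that understates changes of low genes. A filter on the mean of the deposited values (0.1 or more) removed 0 genes. Rhythms were 24 h cosines with Benjamini-Hochberg adjustment over all genes and a threshold of 0.05; an exact Kendall rank test with 12 templates stood in for the study's rhythm tool, which was not installed. Named were the 9 genes, up to 4 of each list by the adjusted p of the rhythm difference (2 for NRF2 targets), and the 5 genes most like Alas1 and Hmox1. The blood markers were named after their values were seen. The 9 genes and the lists were chosen with earlier results of these data known. Tests were checked on simulated data. R 4.3.3, limma 3.58.1 and Python 3.11.15 were used. The circRNA and transcript tables were not used.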

Additional observations from a re-analysis of the deposited data

Results flagged for a closer look

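In groups of 4 livers, 3 single values lay far from the other 3 by Dixon's criterion, out of 126 groups examined, where chance gives about 1 in 20. These were Uros at 4.27 scaled counts in NRF ZT16 replicate 4 (others 3.40 to 3.52), Fech at 41.9 in NRF ZT0 replicate 2 (others 36.2 to 36.5) and Blvrb at 15.9 in NRF ZT24 replicate 1 (others 12.3 to 12.4).

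The rhythm differed between the regimens for 7 genes in limma. The adjusted p was 1.00e-09 for Alas1, 3.03e-06 for Alad, 0.0390 for Uros, 0.000266 for Cpox, 0.0255 for Ppox, 0.00122 for Fech and 0.0339 for Blvrb.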

How the results depend on the processing

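Of 1279 values per gene under other settings, 1137 kept their direction and side of the threshold, 99 lost it, 26 gained it, 4 phase shifts moved and 13 changed sign. The sign changes were all in differences of the 24 h mean, none of them called. With the length trend of each library removed, in both forms tried, Alad gave -0.0076, Fech -0.0083 and Blvrb -0.0030 on the log2 scale. Without the ZT0 libraries Alad gave -0.010 and Fech -0.011. Without each replicate in turn Alas1 ranged from -0.028 to 0.24, Alad from -0.018 to 0.048, Fech from -0.015 to 0.019 and Blvrb from -0.00032 to 0.025.

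With only the 6695 genes of at least 10 scaled counts tested, counts of called genes fell because fewer were tested: 4264 rhythmic under DRF, 4491 under NRF, 4392 for the rhythm difference, 4933 at any clock time, 4747 at any of the pairs 12 h apart, and 2305, 2689, 1954, 2134, 2272, 2058 and 2138 at ZT0 to ZT24. The share of the tested genes that was called rose in each of these tests. Removing the length trend from all genes gave 15931 at any pair 12 h apart, against 10354 in the main test. A form that left genes under 1 scaled count as they were, chosen after that count was seen, gave 9971; the cause of the gap was not tested. Without each replicate in turn, which leaves fewer samples, counts ranged from 756 to 1370 for the 24 h mean, 3259 to 4760 at ZT4, 1978 to 2570 at ZT8, 2471 to 3214 at ZT12, 2249 to 3076 at ZT16, 2267 to 2665 at ZT20 and 2237 to 2903 at ZT24.

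Replicate numbers did not pair the livers. Over 28 pairs of same-numbered DRF and NRF libraries, deviations from the group means correlated between -0.18 and 0.12, and 3 pairs exceeded 0.1. With the replicate block, 8818 genes were rhythmic under DRF, 11055 under NRF, and 9818 differed in rhythm. The block changed 1 call of the 9 genes, Blvrb under NRF, which then passed. The shift of Alas1 lay between 9.87 and 11.5 h in all alternatives.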
